A study of Mus musculus with 2 samples.

Results

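The kinases of the mitogen-activated protein (MAP) kinase cascades were compared between Foxp3-reporter-positive and reporter-negative CD4+ T cells of the mouse. Members were all probe sets (groups of short array probes for 1 transcript) paired with exactly 1 gene symbol that begins with Map2k, Map3k, Map4k or Mapkapk, or is Mapk followed only by a number. This rule found 98 of the 34945 probe sets with 1 symbol, control probe sets left out, and these stand for 40 of 18193 genes. By tier they comprise 3 MAP4K, 16 MAP3K, 7 MAP2K, 11 MAPK and 3 MAPKAPK genes. Not every symbol in these tiers is a kinase gene: Map2k3os is a long noncoding RNA that neighbours Map2k3, and Map3k7cl encodes a protein related to the C-terminal part of TAK1. Map2k7, Map3k13, Map4k2 and Map4k3 are not analysed here.

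MAP kinase cascades are relays in which each kinase switches on the next by phosphorylation. MAP4K enzymes lie near the receptors, MAP3K enzymes phosphorylate MAP2K enzymes, these phosphorylate the MAP kinases (the ERK, JNK, p38 and ERK5 groups), and some MAP kinases activate MAPKAP kinases. In T cells the cascades carry signals from the antigen receptor, from co-stimulation and from cytokines, and their activity is set by phosphorylation, which mRNA signals do not measure.

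Both groups came from DEREG mice, a bacterial artificial chromosome transgenic strain in which the Foxp3 promoter drives green fluorescent protein (GFP) joined to the diphtheria toxin receptor, so the cells of both groups carry the transgene. The GFP-positive group (labelled CD4+GFP+FoxP3+) and the GFP-negative group (labelled CD4+GFPnegFoxP3neg) were enriched for CD4, sorted by flow cytometry to a stated purity above 99% and profiled on 1 Affymetrix Mouse Genome 430 array each, from 6 µg of total RNA. The sources used here do not give the organ, age, sex, number of mice or treatment. GFP reports the transgene's promoter and not Foxp3 protein itself.

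With 1 array per group there was no replicate check, no test was run, and each difference below is between these 2 arrays. The values are signals on a linear scale, and every difference is the log2 GFP-positive signal less the log2 GFP-negative signal. Signals under a floor of 68.7, set from genes restricted to other tissues, were raised to it, and a gene with only 1 signal above the floor has a lower bound, written as at least N-fold. Where a gene has several probe sets, the one brightest on average over both arrays represents it. Signals of different genes depend on their probes and are not compared.

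The sorted-cell markers were present on both arrays: all 10 listed CD4 T cell and regulatory T cell genes were above the floor. Foxp3, the transcription factor of regulatory T cells, gave 504 in GFP-positive against 173 in GFP-negative cells, Cd4 257 and 415, and Cd3e 541 and 862. Of 13 B cell markers with a probe set, 4 were above the floor on each array (Ighm, Cd22, Cd79b and Pou2af1), and the signals of the 13 summed to 2591.4 in GFP-positive against 4868 in GFP-negative cells. Ighm accounts for most of that sum (1881 and 4139): without it the other 12 summed to 711 and 729. Among those 12, Cd79b was higher in GFP-positive cells (222 and 70.8), Cd22 was lower (98.3 and 235) and Pou2af1 was similar (105 and 103). Cd79a, Ms4a1 and Pax5, which define B cells, lay below the floor on both arrays, with signals between 14.0 and 59.7. The 15 myeloid markers summed to 451 and 611, with 2 above the floor on each array, and the 9 CD8 T and NK cell markers to 1629 and 1268, with 3 above it on each array. The 8 erythroid and platelet markers summed to 253 and 274, with 1 and 2 above the floor. The 3' to 5' signal ratio of Actb, a measure that climbs with degraded or partly copied RNA, was 5.30 in GFP-positive against 3.57 in GFP-negative cells. That of Gapdh was 9.27 in GFP-positive against 6.24 in GFP-negative cells. The part of these values in the differences below was not tested. In these bulk samples, fewer cells of a type and less RNA per cell cannot be told apart.

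Most cascade genes had similar signals on both arrays. Of the 40 genes, 28 were above the floor on at least 1 array, 22 of them on both, and 12 were below it on both. Among the 28, 11 were higher and 17 (60.7%) lower in GFP-positive cells, where 51.7% of all 9729 genes above the floor were lower, a share near that of the members. Their median was -0.16 log2, with quartiles of -0.41 and 0.11, against -0.01 over all genes, with quartiles of -0.26 and 0.23. Under the 8 other settings tried, the median of the members lay between -0.16 and -0.07. As a yardstick of scatter within the arrays, differences between probe sets that share a gene scattered with a standard deviation of 0.38 log2 (7611 probe sets of 3018 other genes), and 10 of the 28 members (35.7%) lay beyond it, as did 32.1% of all genes. Of the 28, 8 (28.6%) were lower by more than this yardstick, against 16.3% of all genes, and 2 (7.14%) were higher by more, against 15.8%. That yardstick holds no variation between mice, sorts or hybridisations.

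**Figure D1:**
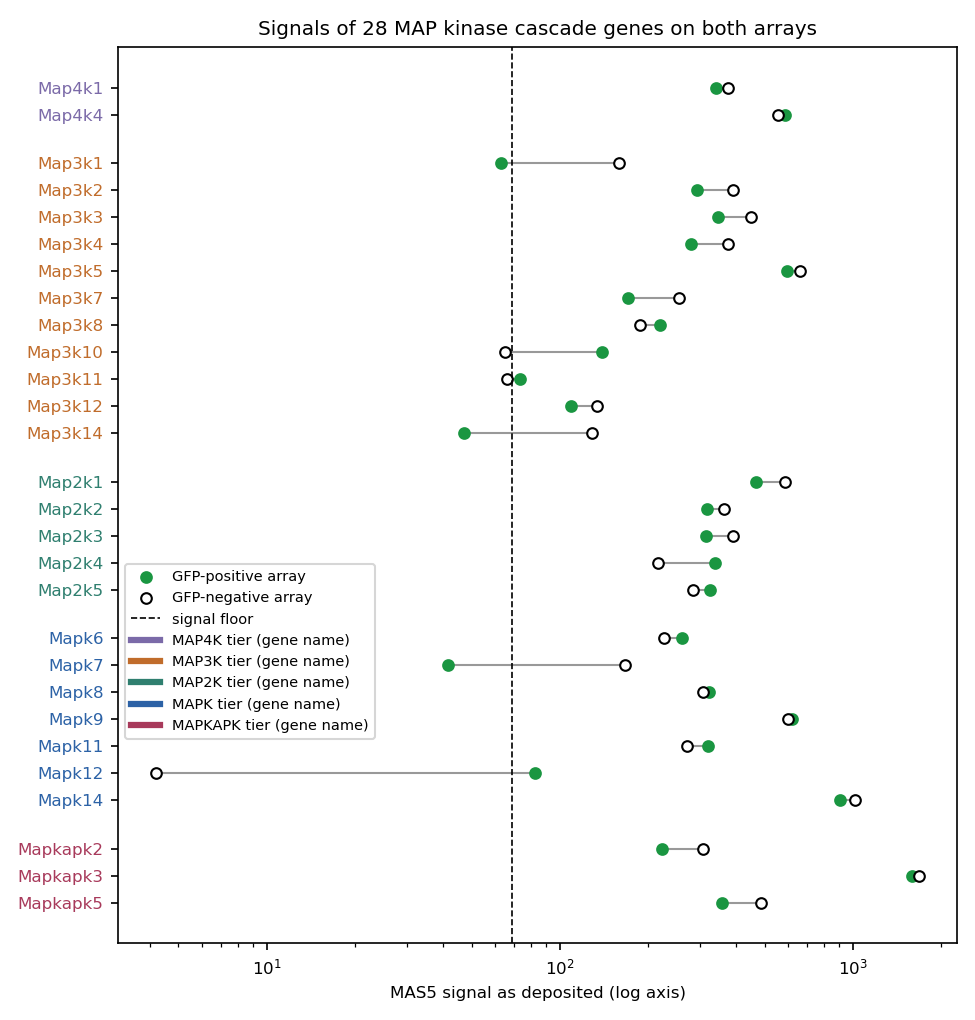
Signals of the 28 member genes above the floor, 1 row per gene and coloured by tier; filled points are the GFP-positive array, open points the GFP-negative array, the dashed line is the floor of 68.7 and the x axis is logarithmic. Most pairs of points lie close together, and Mapk7, Map3k1, Map3k14, Map3k10 and Mapk12, with wider gaps, each have 1 point left of the floor.

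At 2-fold, 1 member was higher in GFP-positive cells (3.57% of the 28, against 1.55% of all genes) and 2 were lower (7.14%, against 1.58%). All 3 are bounds, since each was above the floor on only 1 array. Mapk7, which encodes ERK5, a MAP kinase with a long C-terminal transactivation region, had signals of 41.6 in GFP-positive against 167 in GFP-negative cells, or at least 2.43-fold lower, from its only probe set. Map3k1, which encodes MEKK1, an activator of the JNK branch, had 63.1 and 159, or at least 2.32-fold lower. A second Map3k1 probe set gave 96.4 and 94.8, a difference of 0.02 log2, so the Map3k1 value rests on 1 of its probe sets. Map3k10, which encodes the mixed lineage kinase MLK2, had 139 and 65.1, or at least 2.02-fold higher, and its 3 other probe sets were below the floor on both arrays. With the floor doubled none of the 3 was past 1.5-fold: the differences of Mapk7, Map3k1 and Map3k10 were then -0.28, -0.21 and 0.02 log2.

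Among the 22 members above the floor on both arrays, 0 were past 2-fold (0.00%, against 2.51% of the 7944 such genes) and 1, Map2k4, was past 1.5-fold (4.55%, against 14.1%). Over all 28 members, 2 were at least 1.5-fold higher (7.14%, against 8.07%) and 3 at least 1.5-fold lower (10.7%, against 7.54%), shares near the background.

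The promoters of the 3 members past 2-fold are shown because these members carry the widest differences; they run from 250 bases before to 50 after a RefSeq transcription start (build GRCm38.p6), 5′ to 3′ along the gene. Capitals mark 3 motifs searched on both strands: the forkhead motif GTAAACA, the AP-1 motif TGANTCA and the GC box GGGCGG. For Mapk7 the first of 2 overlapping start sites is given.
Mapk7, chr11:61494217-61494516, minus strand: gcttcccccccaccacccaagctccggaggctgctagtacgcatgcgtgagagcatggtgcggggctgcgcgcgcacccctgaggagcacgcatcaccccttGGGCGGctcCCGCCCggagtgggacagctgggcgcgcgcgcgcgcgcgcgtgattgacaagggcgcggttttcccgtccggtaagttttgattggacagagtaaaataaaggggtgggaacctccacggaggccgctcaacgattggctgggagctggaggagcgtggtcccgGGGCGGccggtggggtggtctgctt
Map3k1, chr13:111808944-111809243, minus strand: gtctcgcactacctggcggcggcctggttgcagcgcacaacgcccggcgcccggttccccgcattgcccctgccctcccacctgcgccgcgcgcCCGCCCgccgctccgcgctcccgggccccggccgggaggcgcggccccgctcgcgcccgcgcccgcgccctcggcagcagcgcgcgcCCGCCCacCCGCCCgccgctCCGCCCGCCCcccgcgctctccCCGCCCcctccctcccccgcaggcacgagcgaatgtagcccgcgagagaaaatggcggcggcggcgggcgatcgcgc
Map3k10, chr7:27674532-27674831, minus strand: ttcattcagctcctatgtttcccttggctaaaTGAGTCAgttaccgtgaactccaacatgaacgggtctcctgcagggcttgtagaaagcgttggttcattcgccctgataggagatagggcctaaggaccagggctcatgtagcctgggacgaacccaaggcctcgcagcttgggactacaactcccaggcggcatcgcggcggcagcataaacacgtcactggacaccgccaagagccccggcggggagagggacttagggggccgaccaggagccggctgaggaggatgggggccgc
The capitals are 3 GC boxes in Mapk7, 6 in Map3k1, and in Map3k10 a single AP-1 motif. Over the 33 promoters used of 25 members above the floor, the forkhead motif was found in 0, against 3.65% of 32851 promoters of this length, and the AP-1 motif in 1 (3.03%, against 7.81%). The GC box was found in 21 (63.6%, against 35.7%). The median GC content was 65.3% in the members' promoters and 52.7% over all. Some of the 33 overlap, as start sites of 1 gene. The 33 belong to genes above the floor, whereas the 32851 were not limited to such genes, so these shares compare unlike sets. These matches describe letters in a window and not binding.

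The MAP4K tier differed little. Map4k1, which encodes HPK1, a kinase that dampens antigen receptor signals in T cells, had signals of 342 in GFP-positive against 375 in GFP-negative cells, 1.10-fold lower. Map4k4, which encodes HGK, had 584 and 557, 1.05-fold higher. The 3 other Map4k4 probe sets above the floor went both ways, with differences of -0.42, 0.25 and 0.59 log2. Map4k5, which encodes a related kinase, had signals of 68.7 and 46.9 and did not exceed the floor. The median of the 2 measured genes was -0.03 log2, and it became positive under several other settings, among them quantile normalization (0.01) and loess (0.02).

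In the MAP3K tier more genes were lower than higher in GFP-positive cells. Of 11 genes above the floor, 8 were lower (72.7%, against 51.7% of all genes) and 3 higher. Their median was -0.38 log2, with a range from -1.21 to 1.02. Of the 11, 4 are bounds, and the probe sets of Map3k1, Map3k4, Map3k7 and Map3k14 went both ways. The median stayed below 0 under all 8 other settings, between -0.38 and -0.14, and was -0.17 when the probe sets of each gene were averaged.

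Map3k7 encodes TAK1, which links the antigen receptor, IL-1 and toll-like receptors to NF-kappaB, JNK and p38. Its signals were 171 in GFP-positive against 255 in GFP-negative cells, 1.495-fold lower, just under the 1.5-fold threshold. A second probe set was lower as well (113 and 157), whereas another was higher (187 and 148).

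Other MAP3K genes with brighter probe sets were also lower. Map3k2 and Map3k3, which encode MEKK2 and MEKK3, activators of the ERK5 branch, had signals of 293 and 389 (1.33-fold lower) and of 346 and 451 (1.30-fold lower). A second probe set of each was lower too, by 0.22 and 0.14 on the log2 scale. Map3k4, which encodes MEKK4, a partner of GADD45 proteins, had 280 and 376, 1.34-fold lower. Another of its probe sets gave the same direction (158 and 213), while a dimmer one was higher, at 98.8 and 57.6. Map3k5, which encodes ASK1, a kinase of oxidative stress responses, had 595 and 658, 1.10-fold lower.

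Map3k14 encodes NIK, the kinase of the non-canonical NF-kappaB pathway that TNF receptor family members use. Its probe sets pointed in opposite directions: the representing one gave 47.2 in GFP-positive against 129 in GFP-negative cells, at least 1.87-fold lower, and the other 102 and 55.3, at least 0.57 log2 higher. Their mean was -0.17 log2, and after quantile normalization the other probe set represented the gene and the difference was 0.61.

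The remaining MAP3K genes were Map3k12, Map3k11 and Map3k8. Map3k12, which encodes DLK, a kinase known mainly from neurons, had 109 and 134, 1.23-fold lower. Map3k11, which encodes MLK3, had 73.0 and 66.2, at least 1.06-fold higher, close to the floor, and was at -0.0052 log2 after quantile normalization. Map3k8, which encodes TPL2, an activator of MEK downstream of inflammatory receptors, had 219 and 188, 1.16-fold higher. Map3k6, Map3k9, Map3k20, Map3k21 and Map3k7cl were below the floor on both arrays.

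**Figure D2:**
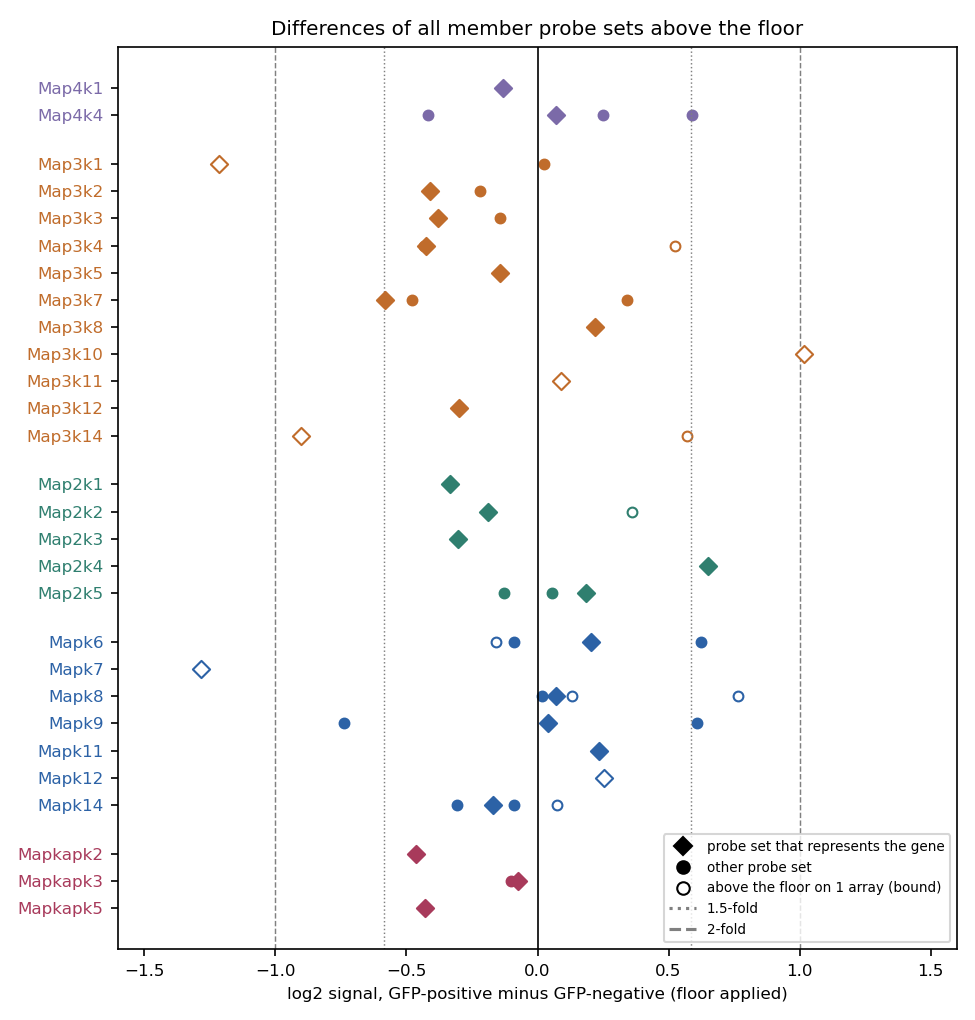
Log2 difference, GFP-positive minus GFP-negative, of each member probe set above the floor, 1 row per gene and coloured by tier; diamonds represent the gene, circles are other probe sets, open symbols are bounds, and dotted and dashed lines mark 1.5-fold and 2-fold. Of 14 genes with at least 2 such probe sets, 10 have values on both sides of 0.

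In the MAP2K tier 3 of 5 genes above the floor were lower (60.0%, against 51.7% of all genes) and 2 higher. Their median of -0.19 log2 turned to 0.038 when probe sets were averaged. Map2k4, which encodes MKK4, the kinase above JNK that also acts on p38, had signals of 339 in GFP-positive against 216 in GFP-negative cells. It was 1.57-fold higher, which is 0.65 log2, and stayed between 0.47 and 0.67 log2 under the 8 other settings. Its second probe set was below the floor on both arrays (32.8 and 21.0).

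The other MAP2K genes differed less. Map2k1 and Map2k2, which encode MEK1 and MEK2, the kinases of ERK, had 467 and 588 (1.26-fold lower) and 319 and 364 (1.14-fold lower). A second Map2k2 probe set was higher, at 88.3 and 34.3, which made the mean of the Map2k2 probe sets 0.09 log2. Map2k3, which encodes MKK3, a kinase of p38, had 316 and 391, 1.23-fold lower. Map2k5, which encodes MEK5, the kinase of ERK5, had 325 and 286, 1.14-fold higher, and its other probe sets differed by 0.06 and -0.13 log2. Map2k6 and Map2k3os were below the floor on both arrays.

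In the MAPK tier 5 of 7 genes above the floor were higher in GFP-positive cells and 2 lower (28.6%, against 51.7% of all genes). Their median was 0.07 log2 and lay between 0.05 and 0.15 under the other settings. Apart from Mapk7 and Mapk12, which were above the floor on 1 array only, all lay within 1.2-fold. Mapk14, which encodes p38 alpha, the main p38 kinase of T cells, had 906 in GFP-positive against 1020.3 in GFP-negative cells, 1.13-fold lower. Its 3 other probe sets above the floor gave -0.31, -0.09 and 0.07 log2. Mapk11, which encodes p38 beta, had 321 and 273, 1.18-fold higher. Mapk12, which encodes p38 gamma, had 82.0 and 4.2, so its fold is at least 1.19.

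The JNK genes had nearly equal signals. Mapk8, which encodes JNK1, had 323 and 308, 1.05-fold higher, and the 4 Mapk8 probe sets above the floor were all higher, from 0.02 to 0.76 log2. Mapk9, which encodes JNK2, had 618 and 601, 1.03-fold higher, but its other probe sets went both ways, with 135 and 88.6 in one and 107 and 179 in the other. The mean of the Mapk9 probe sets was -0.03 log2. Mapk6, which encodes the atypical kinase ERK3, had 260 and 226, 1.15-fold higher, and another Mapk6 probe set gave 201 and 130. The 2 dimmer Mapk6 probe sets were lower, at 69.1 and 73.5 and at 38.5 and 76.6. Mapk4, Mapk10, Mapk13 and Mapk15 were below the floor on both arrays.

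All 3 MAPKAPK genes had lower signals in GFP-positive cells, as did 51.7% of all genes, with a median of -0.43 log2. Each of the 3 stayed lower under every other setting that measured it. Mapkapk2, which encodes MK2, the p38 target that controls the stability of cytokine mRNAs, had signals of 224 in GFP-positive against 309 in GFP-negative cells, 1.38-fold lower. Mapkapk5, which encodes MK5, a partner of ERK3, had 359 and 484, 1.35-fold lower. Mapkapk3, which encodes MK3, had 1594 and 1679, 1.05-fold lower, and its second probe set gave 1116 and 1196. The differences of Mapkapk2 and Mapkapk5 are slightly beyond the yardstick of 0.38 and each rests on 1 probe set.

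**Figure D3:**
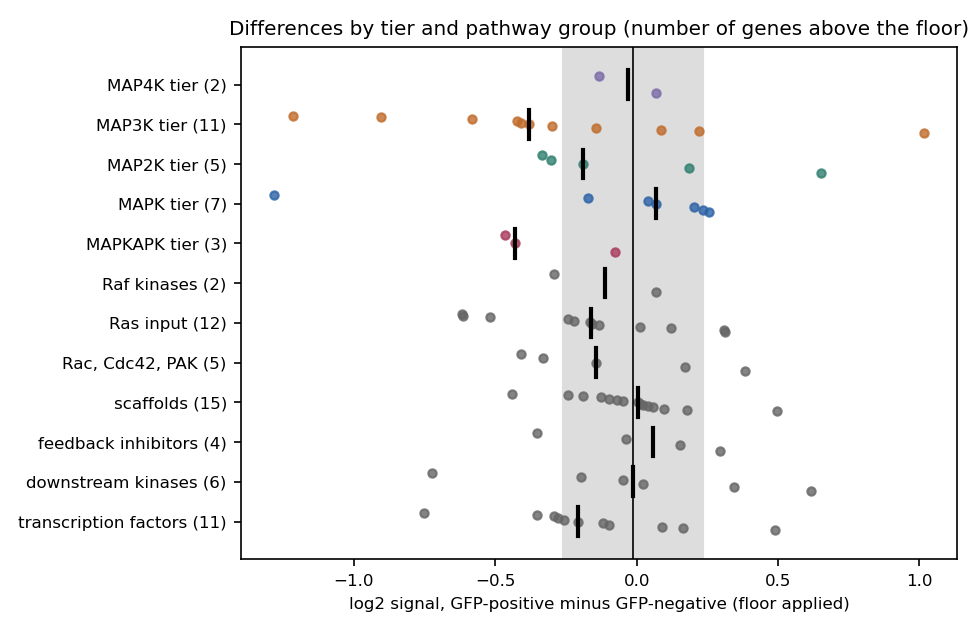
Log2 difference, GFP-positive minus GFP-negative, of each gene above the floor, by cascade tier (coloured) and by group of pathway genes with other names (grey), with the number of genes in brackets; thick black ticks are group medians, the grey band spans the quartiles of all genes and the thin line is their median. The ticks of the MAP3K and MAPKAPK tiers, at -0.38 and -0.43, lie left of the band, and those of the other groups lie within it.

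Ordered by signalling branch instead of tier, Map2k4, Mapk8 and Mapk9 of the JNK branch were higher in GFP-positive cells, with a median of 0.07 log2, except that Mapk9 was at -0.03 with its probe sets averaged. Map3k1 and Map3k7, which act above JNK but also on other pathways, were lower and are not counted in that median, so it depends on which genes are assigned to the branch. In the ERK5 branch, Map3k2, Map3k3 and Mapk7 were lower and Map2k5 higher, with a median of -0.40. In the p38 branch 4 genes were lower (Map2k3, Mapk14, Mapkapk2 and Mapkapk3) and 2 higher (Mapk11 and Mapk12), with a median of -0.12. Map2k1 and Map2k2 of the ERK branch were lower and Map3k8 higher, with a median of -0.19. The ERK5 and ERK medians count MAP3K genes (Map3k2, Map3k3 and Map3k8), whereas the JNK and p38 medians count none. The branch medians therefore differ in make-up and are not set against each other. The branches hold 3 to 6 measured genes each, so a median rests on few values.

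Other genes of the pathway, from 7 lists, differed by amounts close to those of all genes. Of 78 listed, 70 had a probe set and 55 were above the floor. Of these, 23 were higher in GFP-positive cells and 32 lower (58.2%, against 51.7% of all genes). Their median was -0.10 log2, and 1 was at least 1.5-fold higher (8.07% of all genes were) and 4 at least 1.5-fold lower (7.54% of all genes were), with 0 past 2-fold. Ras family proteins, with the activators and inhibitors of Ras, were lower in 8 of 12 cases (66.7%, against 51.7% of all genes), with a median of -0.16. The list pools activators with inhibitors, so this share gives no direction of Ras control. Grb2, the adaptor that brings SOS to receptors, had 291 and 446, 1.53-fold lower, and Rasal3, a Ras GTPase-activating protein of T cells, had 1089.5 and 1668, 1.53-fold lower. A second probe set of each was lower too, at 175 and 249 for Grb2 and 70.8 and 119 for Rasal3.

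Of the Raf kinases, which act at the MAP3K level of the ERK branch, Braf had 431 and 528 (1.22-fold lower) and Araf 350 and 334 (1.05-fold higher). Other Braf probe sets above the floor were higher, among them 1 with signals of 161 and 105. The 3 other Araf probe sets above the floor were lower, with differences of -0.46, -0.08 and -0.02 log2. Rac2, a small GTPase of blood cells, had 4498 and 5972, 1.33-fold lower. Pak4, a p21-activated kinase, had 89.7 and 26.1, at least 1.31-fold higher. In the list of these genes 3 of 5 were lower (60.0%, against 51.7% of all genes), with a median of -0.14.

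Of 15 scaffolds and adaptors, 8 were higher and 7 lower (median 0.0036). Traf6, the ubiquitin ligase above TAK1, had 173 and 122, 1.41-fold higher, and Traf6 probe sets above the floor were all higher (109 and 81.0, 93.7 and 56.8). Spag9, the JNK scaffold JIP4, had 459 and 623, 1.36-fold lower, with a dimmer probe set higher (79.6 and 49.5). Among the 4 measured feedback inhibitors, 2 higher and 2 lower with a median of 0.06, Spry1 had 179 and 228 (1.28-fold lower) and Spred1 126 and 102 (1.23-fold higher).

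Of 6 kinases activated by MAP kinases, 3 were higher and 3 lower (median -0.01). Rps6ka5, which encodes MSK1, a kinase of histone H3 and CREB, had 172 and 112, 1.53-fold higher. Rps6ka6, which encodes RSK4, had 57.3 and 113, at least 1.65-fold lower. Transcription factors that MAP kinases phosphorylate were lower in 8 of 11 cases (72.7%, against 51.7% of all genes), with a median of -0.21. Among them, Ddit3, which encodes the stress factor CHOP, had 189 and 319, 1.68-fold lower. That count uses the representing probe sets, and the probe sets of Mef2a, Mef2d, Atf2 and Creb1, among others, went both ways. Mef2a was lower with its representing probe set (433 and 500) but higher with another (159 and 32.6). Mef2d was likewise lower with its representing probe set (392 and 469) but higher with another (172 and 76.1).

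**Figure D4:**
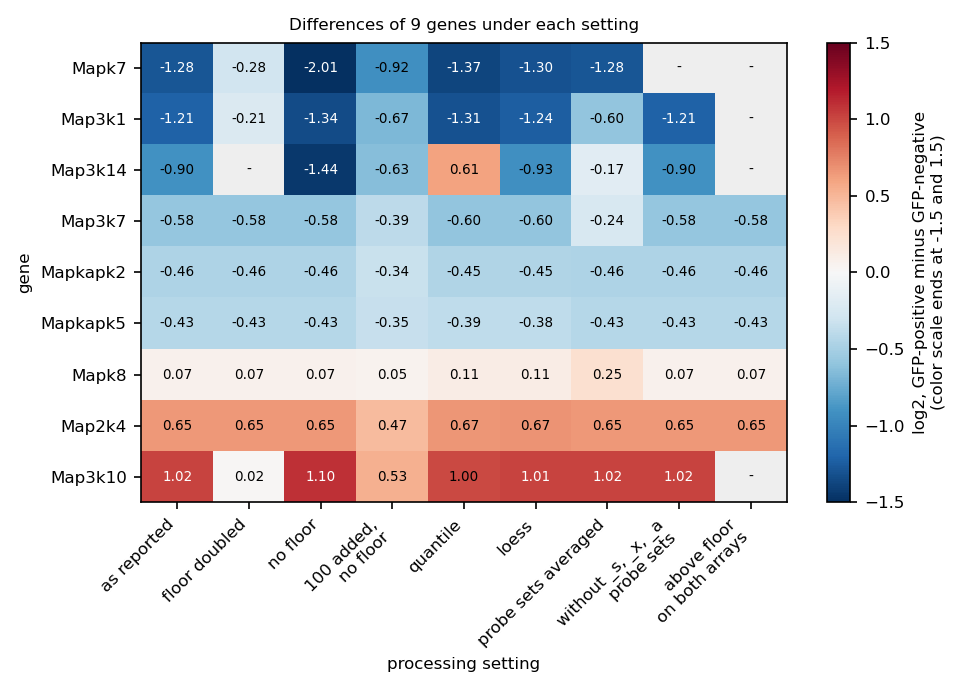
Log2 difference, GFP-positive minus GFP-negative, of 9 member genes (rows) under each processing setting (columns), with the value in each cell, blue for lower and red for higher in GFP-positive cells, and a dash where the setting gives no value. Map2k4, Mapkapk2 and Mapkapk5 keep their direction across columns and are smallest with 100 added (0.47, -0.34 and -0.35). Mapk7, Map3k1 and Map3k10 shrink to -0.28, -0.21 and 0.02 with the floor doubled, and Map3k14 turns to 0.61 after quantile normalization.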

How the data were processed

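RNA of 1 GFP-positive and 1 GFP-negative sample was hybridised to 1 array each. The authors deposited 1 intensity per probe set and array, a MAS5 signal on a linear scale, per the submitters' processing notes; the sources used here do not give the version, settings or detection calls. The 2% trimmed mean was 150.0 on both arrays, so the deposited intensities had been scaled to each other. No further normalization was applied.

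Of 45101 probe sets, 34958 had 1 symbol in the platform annotation, 932 several and 9211 none; all 98 member symbols matched the reference gene table and 0 were altered. The floor of 68.7 is the 90th percentile of 133 probe sets of 77 tissue-restricted genes (85 listed), of which 15 still exceeded it with their brightest probe set. The arrays' number limits the precision. Members and gene lists were chosen with earlier results of these data known, and the grouping into branches, like the motifs, after the values were seen. Named were all members above the floor and, per pathway list, those past 1.5-fold or otherwise the 2 with the widest difference. Promoters came from RefSeq (GRCm38.p6); none from chromosome 18 was used. Alternatives changed the floor, normalization (quantile, or loess with a span of 0.3), probe set choice and gene filter. Steps were tested on simulated data. Software was Python 3.11.15 with numpy 2.4.6, pandas 2.3.3, statsmodels 0.14.6 and matplotlib 3.10.9.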

Additional observations from a re-analysis of the deposited data

How the results depend on the processing

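The counts of members past a fold moved with the floor, because all members past 2-fold were above it on 1 array only. With the floor doubled to 137.4, 0 members were past 2-fold in either direction, and 1 was past 1.5-fold higher and 0 lower. Without a floor, which lets in all 40 genes, 4 were past 2-fold higher and 5 lower, and 7 and 6 past 1.5-fold. With 100 added to each signal, 0 and 0 were past 2-fold, and 1 past 1.5-fold higher and 4 lower. Over genes above the floor on both arrays the 2-fold counts were 0 and 0, and the 1.5-fold counts 1 and 0. After quantile normalization 0 were past 2-fold higher. With probe sets averaged, and likewise with probe sets of suffix _s, _x or _a (which may match more than 1 transcript) left out, 1 was past 2-fold lower.

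Tier medians moved by 0.1 log2 or more in these cases. The MAP4K median was 0.0695 without a floor and 0.25 without such probe sets. The MAP3K median was -0.25 without a floor, -0.14 with 100 added, -0.17 with probe sets averaged and -0.22 without such probe sets. The MAP2K median was -0.0882 after quantile normalization, 0.0383 with probe sets averaged and -0.0021 without such probe sets. The MAPK and MAPKAPK medians, that of all members and that of the pathway genes with other names moved by less. Of the 28 members, 24 kept a value with the floor doubled, 23 without such probe sets and 22 above the floor on both arrays. The Map3k14 difference reversed to 0.61 after quantile normalization, where its other probe set became the representing one.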

Other observations

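Of the array's probe sets, 4 are annotated to Mapkapk5 together with the neighbouring gene Adam1a and so fell outside the rule. Their signals were 218 in GFP-positive against 228 in GFP-negative cells, 39.7 and 31.8, 63.5 and 49.6, and 5.0 and 52.6. Only the first of these exceeded the floor on either array. The probe set annotated to Mapkapk5 alone gave 359 and 484.

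Member genes differed in how well their own probe sets agreed. Of 14 genes with at least 2 probe sets above the floor, 10 had values of both signs, and 4 spanned more than 1 log2 unit: Map3k14 (1.47), Mapk9 (1.35), Map3k1 (1.24) and Map4k4 (1.004). Mapkapk3 (0.02), Map3k2 (0.19) and Map3k3 (0.24) had the narrowest spans. For the 11 member genes with at least 2 probe sets above the floor on both arrays (29 probe sets), the standard deviation within genes was 0.36. It was 0.38 for the 3018 other genes chosen in the same way.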
